A study of Harpegnathos saltator with 75 samples.

Results

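The genes described here are 150 of 20659 gene models of the jumping ant Harpegnathos saltator. They had higher transcript levels in the ovary of workers than in the ovary of gamergates at day 10 of caste transition, while remaining expressed in both. They were chosen from the day 10 ovary values themselves. CPM values (the read count of a gene per 1e6 reads in genes) were scaled over all 75 libraries by the trimmed mean of M-values (TMM), and 5 CPM were added to each group mean. The log2 ratio of gamergate to worker at day 10 had to be -0.8 or lower in the ovary and larger in size there than in the fat body or the brain. The gamergate ovary mean had to reach 20 CPM, and at day 0 the tissue with the highest mean could exceed the next by a log2 ratio below 3. This removed the genes most specific to a tissue, but genes less strongly biased to a tissue could stay. In all 292 genes met these conditions, and the 150 with the lowest ratio were kept.

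The 75 libraries of polyadenylated RNA came from ovary, fat body and non-visual brain. Every tissue has a day 0 group, a worker and a gamergate group at day 3, and a worker and a gamergate group at day 10, which makes 15 groups of 5 libraries. The day 0 ants carry the worker label. Neither strain nor age is labelled, and nothing says that replicates come from different ants; the p-values therefore cover the spread among these libraries, which may be technical.

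In this ant, workers duel with their antennae when a colony loses its reproductive, and the winners mate, activate their ovaries and lay eggs as gamergates. The insect ovary is built of ovarioles, in which germline cells (the oocyte and the nurse cells that supply it) grow inside a sheath of somatic follicle cells, beside muscle, tracheae and connective tissue. An ovary without growing follicles therefore differs from a laying one in its mixture of cells as well as in gene activity. The fat body, the insect counterpart of liver and adipose tissue, makes the yolk protein that growing oocytes take up. In bulk RNA, a change in the share of a cell type and a change in RNA per cell cannot be told apart, and this holds for every level below. The gene identifiers are not paired with names in the sources used here, so the genes are given by identifier, at most 2 for each direction of a comparison, and their functions are not stated.

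Between 488892 and 4677916 reads of a library fell in genes, and in the ovary at least 737818 did. The 150 genes took 12379 to 207085 of these reads in an ovary library. Some libraries stood apart. Among the day 10 ovaries, gamergate 5 lay outside the range of the other 4 gamergates, and workers 4 and 5 lay below the other 3 workers. At day 3, worker ovary 4 lay below the other day 3 workers, and at day 0, brain 5 lay below the other day 0 brains. At day 3 and at day 10, all worker libraries were sequenced on lane 1 and all gamergate libraries on lane 2 of a flow cell, so lane and caste cannot be told apart except through a few day 0 libraries. All day 3 libraries were on the same flow cell and all day 10 libraries on another, while the day 0 libraries lay on both. Day 3 and day 10 therefore cannot be told apart from flow cell except through day 0. Results that rest on the libraries that stood apart are given also without them.

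The chosen ratio had a median of -1.29 on the log2 scale in the ovary and ran from -3.40 for HSALG013364.2 to -1.01 for HSALG002997.2, the last gene kept. The next gene, HSALG008429.2, was also at -1.01 and was left out by the limit on number. At the limit on gamergate level, HSALG009069.1 was inside with 20.02 CPM and HSALG007349.2 outside with 19.6 CPM. At the limit on tissue specificity, HSALG001845.2 was inside with a log2 ratio of 2.97 between its highest and second tissue at day 0 and HSALG011276.2 outside with 3.15. The CPM minimum alone removed 274 genes, the limit on tissue specificity alone 21, and the condition that the ratio be largest in the ovary alone 15. These counts cover only genes with an ovary ratio as low as that of the last gene kept, or lower. The same ratio had a median of -0.09 in the fat body and -0.02 in the brain, with 83 and 80 of the 150 genes below 0. The rule bounded these ratios by the size of the ovary ratio, so they are a description.

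The limit on tissue specificity kept out genes far higher in 1 tissue at day 0. The spread of the 150 genes over the tissues is therefore a description. At day 0 the highest mean was in the brain for 56 of them, in the fat body for 49 and in the ovary for 45. The median over the genes was 55.6 CPM in day 0 ovary, 56.4 CPM in fat body and 58.9 CPM in brain. At least 20 CPM was reached by all but 1 of the genes in day 0 ovary, by 117 in fat body and by 118 in brain. The lowest means were 2.49 CPM in fat body and 0.44 CPM in brain. The genes highest in the fat body at day 0 had the lowest median ratio at day 10 in the ovary, -1.44 on the log2 scale, against -1.27 for those highest in the ovary and -1.21 for those highest in the brain.

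Over the 5 ovary groups the 150 genes followed a common profile. The mean of log2(CPM + 5) over the genes, taken in each library, was 6.13 ± 0.225 (SD, n = 5) at day 0, 6.24 ± 0.455 in day 3 workers and 6.07 ± 0.289 in day 3 gamergates. It was 7.17 ± 0.486 in day 10 workers and 5.73 ± 0.441 in day 10 gamergates. The day 10 workers had values of 7.58, 7.37, 7.57, 6.86 and 6.48. The day 10 gamergates had values of 5.47, 5.57, 5.46, 5.63 and 6.51. Gamergate 5 thus lay above worker 5 and within the range of the day 0 and day 3 ovaries, whereas gamergates 1 to 4 lay below every worker. As a share of all reads in genes, the 150 genes took 4.61% ± 1.34 in day 10 worker ovaries, 1.47% ± 0.80 in day 10 gamergate ovaries and 2.23% on average at day 0.

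**Figure D1:**
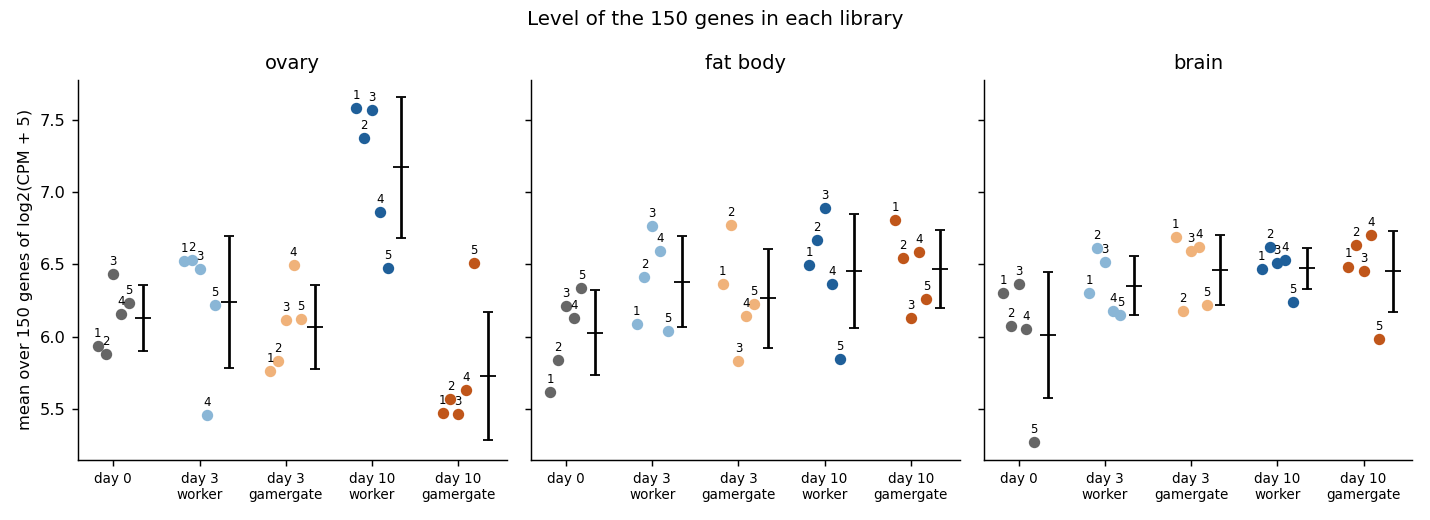
Mean over the 150 genes of log2(CPM + 5) in each of the 75 libraries, by tissue and group, with a line at the mean of each group. In the ovary the day 10 workers sit between 6.48 and 7.58 and gamergates 1 to 4 between 5.46 and 5.63, while gamergate 5 sits at 6.51.

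For the genes kept by the rule, the day 10 difference had a part on both sides of the day 3 mean, with the larger median on the worker side. The day 3 and day 10 libraries were on different flow cells, so distances from day 3 cannot be told apart from a flow cell difference. Relative to the mean of the day 3 groups, the median gene was 0.89 higher on the log2 scale in day 10 workers and 0.42 lower in day 10 gamergates (median log2 difference -0.42). The corresponding medians over the 9150 genes tested in the ovary were -0.05 and -0.01. Relative to day 0 the medians of the 150 genes were 1.07 in day 10 workers and -0.31 in day 10 gamergates. Without gamergate 5 the gamergate medians were -0.67 against day 3 and -0.55 against day 0. Without workers 4 and 5 the worker medians were 1.11 against day 3 and 1.28 against day 0. The day 10 worker mean was the highest of the 5 ovary means for 148 of the 150 genes, and the day 3 worker mean for the other 2. Over the 9150 genes tested the day 10 worker mean was the highest for 2684. The lowest mean was that of the day 10 gamergates for 98 genes, of the day 3 gamergates for 29, of day 0 for 22 and of the day 3 workers for 1. Over all genes tested the day 10 gamergate mean was the lowest for 2231. Without gamergate 5 the day 10 gamergate mean was the lowest for 136 of the 150 genes and for 2832 of all genes tested. For 117 of the 150 genes the day 0 mean lay between the day 10 castes and for 33 it lay below both. Among all genes tested, 1838 had a day 0 mean between a lower day 10 gamergate mean and a higher day 10 worker mean. Because the rule chose the genes from their day 10 values, these positions are a description and carry no test. The minimum of 20 CPM in gamergate ovary also kept out genes that were lower there. The split between the worker and the gamergate side may therefore depend on the rule.

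**Figure D2:**
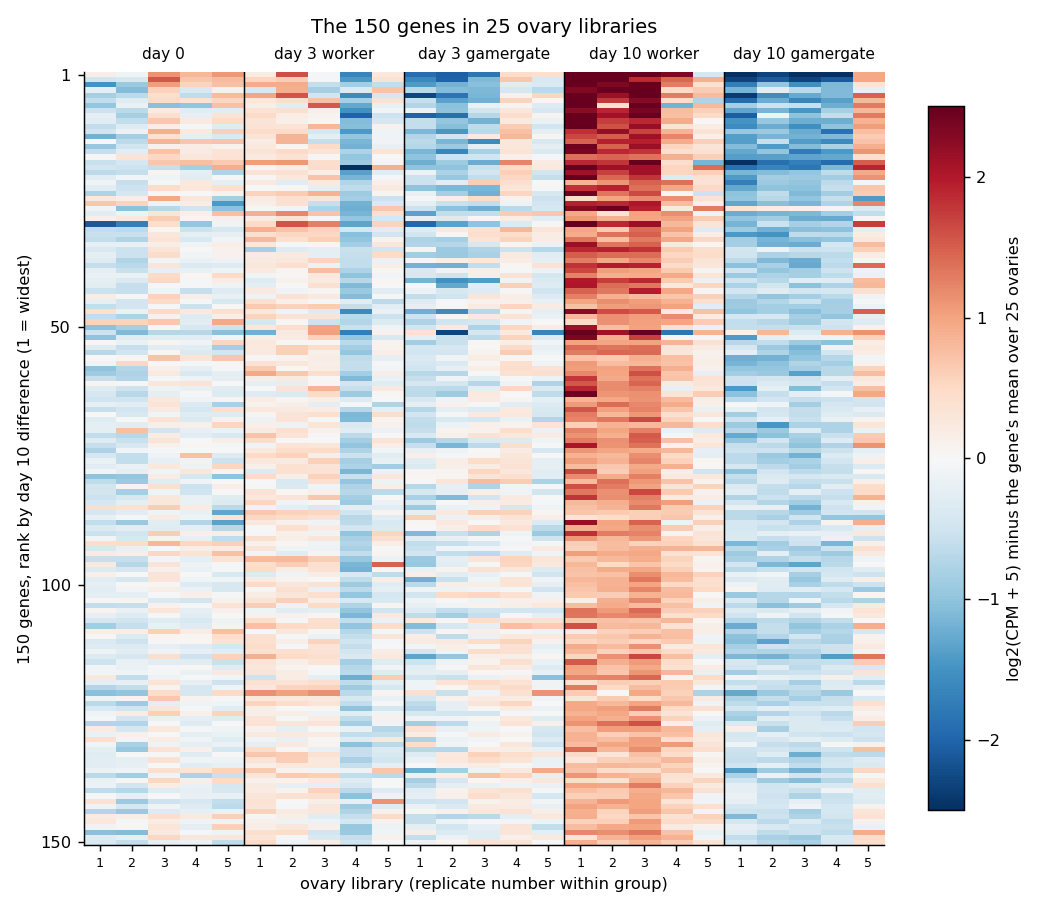
Deviation of log2(CPM + 5) from the mean of the gene over the 25 ovary libraries, for the 150 genes (rows) and the libraries (columns, by group). Day 10 worker columns 1 to 3 lie above the gene mean in all 150 rows, column 4 in 143 and column 5 in 114, and gamergate columns 1 to 4 lie above it in 1 to 5 rows. Gamergate column 5 lies above it in 98 rows, and day 3 worker column 4 in 0.

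The spread within the day 10 groups was shared by most of the genes. Gamergate 5 was the highest of the 5 gamergates for 125 of the 150 genes, and worker 5 the lowest of the 5 workers for 125. Workers 4 and 5 were the lowest pair of the workers for 103 genes. Gamergate 5 exceeded worker 5 for 74 genes. Every worker library lay above every gamergate library for 70 of the 150 genes, where 8.13% of all genes tested did so. This count was 142 without gamergate 5 and 107 without worker 5, and 70 to 75 when any other day 10 ovary was left out. The share over all genes was taken with all 10 libraries only. The rule chose the genes on this same contrast, so the counts are a description. The median ratio was -1.49 without gamergate 5 and -1.43 without worker 5, and the ratio of each of the 150 genes stayed at or below -0.8 whichever day 10 ovary was left out. Without gamergate 5, however, the gamergate mean of 29 genes fell under 20 CPM, and 108 of the 150 genes would have been chosen again.

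The gene with the lowest ratio, HSALG013364.2, was at 635, 824, 886, 528 and 72.9 CPM in day 10 worker ovaries 1 to 5. In day 10 gamergates 1 to 5 it was at 11.5, 16.1, 12.9, 13.8 and 201 CPM. Gamergate 5 lay above worker 5, and the other libraries of the castes did not overlap. At day 0 it was at 113, 92.6, 225, 183 and 218 CPM, between the bulk of both day 10 castes. At day 3 the gamergates were at 23.3, 20.5, 25.2, 140 and 133 CPM and the workers at 114, 315, 97.6, 28.7 and 121 CPM. Gamergates 1 to 3 were thus low already at day 3, as was worker 4. The second gene, HSALG004554.2, was at 651, 664, 320, 237 and 160 CPM in day 10 workers and 12.9, 16.1, 12.9, 15.8 and 169 CPM in day 10 gamergates. Its day 3 gamergates were at 24.2, 17.1, 36.6, 137 and 63.6 CPM and its day 3 workers at 124, 134, 81.7, 27.8 and 112 CPM. As in HSALG013364.2, gamergate 5 at day 10 lay among the libraries of the other caste. At day 3 the castes overlapped in both genes, and worker 4 was the lowest of the workers in each.

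HSALG011577.2 and HSALG009310.2 had the highest CPM among the 150 genes in day 10 worker ovary, and they behaved differently. HSALG011577.2 was at 1821, 2080, 2057, 2156 and 1667 CPM in day 10 workers and at 901, 940, 766, 1070 and 851 CPM in day 10 gamergates. Its castes did not overlap, and gamergate 5 was not set apart. At day 0 it was at 1156, 1184, 1722, 1180 and 949 CPM, mostly between the day 10 castes. HSALG009310.2 was at 2917, 1880, 1859, 629 and 1140 CPM in day 10 workers. In day 10 gamergates it was at 114, 134, 119, 193 and 1624 CPM, so that gamergate 5 exceeded workers 4 and 5. Day 0 ovaries of HSALG009310.2 were at 308, 299, 288, 239 and 807 CPM, with the fifth far above the other 4.

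**Figure D3:**
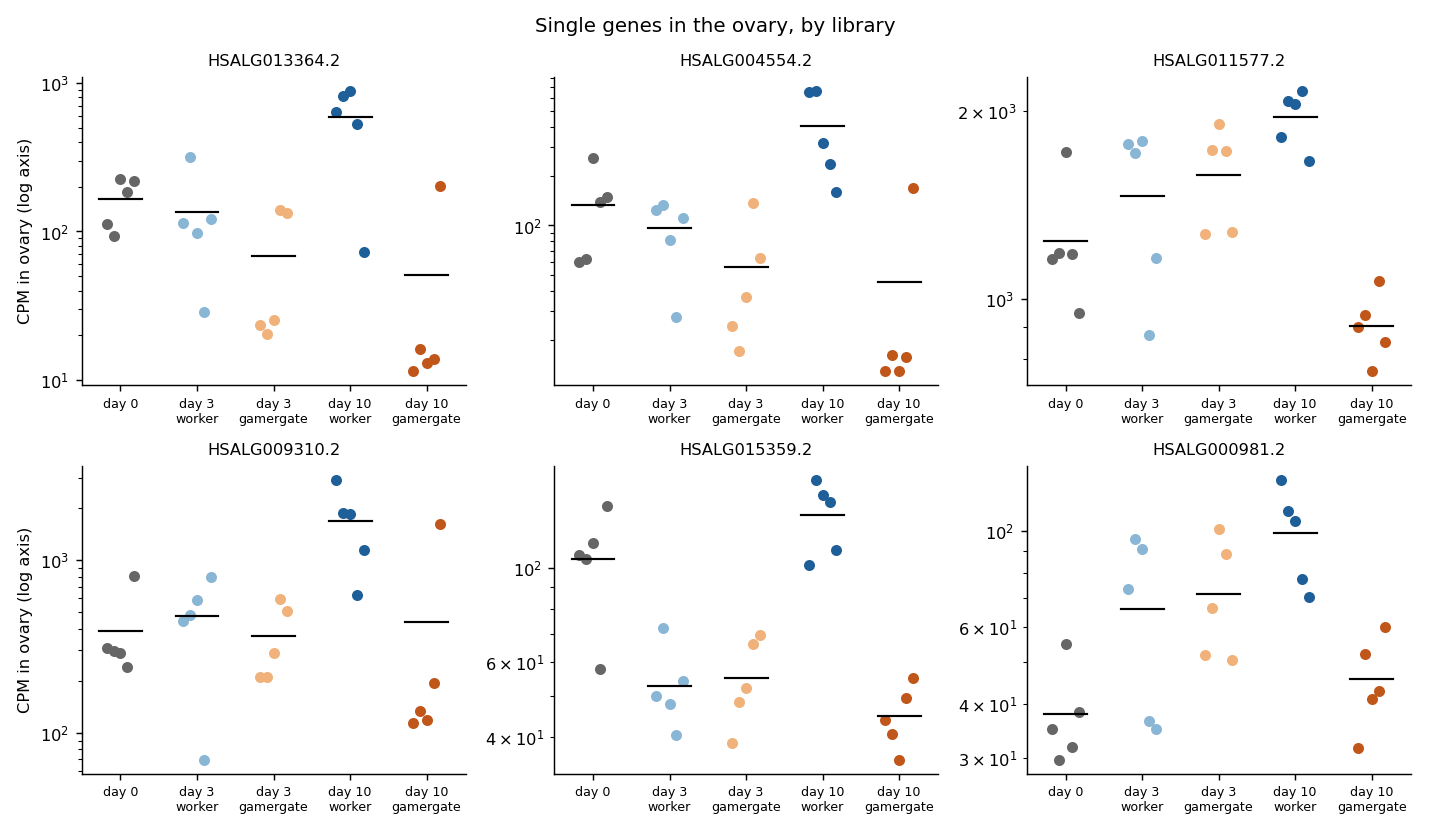
CPM of 6 of the genes in the 25 ovary libraries on a log axis, by group, with a line at the group mean. In HSALG013364.2, HSALG004554.2 and HSALG009310.2 one day 10 gamergate library lies with the workers, whereas in HSALG011577.2 and HSALG015359.2 the day 10 castes do not overlap.

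Some of the 150 genes varied little between the groups other than the day 10 gamergates. Those varying least outside the day 10 gamergates were HSALG004117.2 and HSALG005340.1, with standard deviations of 0.17 and 0.20 log2 units over the other 4 ovary group means. These are group means, and single day 3 libraries varied more. HSALG004117.2 was at 156, 175, 206, 165 and 225 CPM at day 0 and at 226, 245, 270, 291 and 195 CPM in day 10 workers. In day 10 gamergates it was at 110, 98.9, 124, 88.2 and 87.5 CPM, below every day 0 and day 10 worker library. At day 3 HSALG004117.2 was at 160 to 270.2 CPM in gamergates and at 257, 245, 230, 108 and 147 CPM in workers, so that worker 4 lay in the day 10 gamergate range. HSALG005340.1 was at 94.6, 97.2, 139, 133 and 159 CPM at day 0 and at 176, 146, 144, 172 and 105 CPM in day 10 workers. Its day 10 gamergates 1 to 4 were at 37.4, 54.5, 43.3 and 60.5 CPM and gamergate 5 at 151.1 CPM. At day 3 HSALG005340.1 was at 42.3, 56.9, 96.5, 126 and 206 CPM in gamergates and at 95.0 to 172 CPM in workers, so gamergates 1 and 2 were as low as at day 10. For both genes the day 10 worker range overlapped the day 0 range.

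Reads of genes enriched in a tissue at day 0 moved together with the level of the 150 genes in the day 10 worker ovaries. Lists of 163 ovary-enriched, 373 fat-body-enriched and 704 brain-enriched genes were made from the day 0 libraries and stood in for cell type markers. They hold 2, 1 and 1 of the 150 genes. Ovary-enriched genes took 2.79%, 2.68% and 2.503% of the reads in day 10 worker ovaries 1 to 3, 4.09% in worker 4 and 4.73% in worker 5. In day 10 gamergates 1 to 4 they took 4.60% to 5.37%, and in gamergate 5 they took 3.58%. The worker ovaries in which the 150 genes were highest were thus those with the fewest ovary-enriched reads, and gamergate 5 had the fewest of its group.

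Fat-body-enriched genes took 4.397%, 4.13% and 3.41% of the reads in day 10 worker ovaries 1 to 3, 2.06% in worker 4 and 2.41% in worker 5. Over the other 20 ovary libraries their share was 1.69% to 2.66%. Brain-enriched genes took 0.631% ± 0.183 in day 10 worker ovaries and 0.409% ± 0.054 in day 10 gamergate ovaries, against 0.360% on average at day 0. Day 10 workers 1 to 3 thus had more fat-body-enriched and brain-enriched reads than any other ovary. What part these shares have in the difference of the 150 genes was not tested. The fat bodies of the same numbers also differed, though the labels do not say that a number marks an ant. HSALG009096.2, a gene outside the 150 and a main contributor of fat body reads, took 43.4% to 44.5% of the reads in day 10 gamergate fat bodies 1 to 4 and 9.85% in fat body 5. In day 10 worker fat bodies it took 1.24%, 0.54% and 0.29% in numbers 1 to 3, 14.7% in number 4 and 11.5% in number 5.

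**Figure D4:**
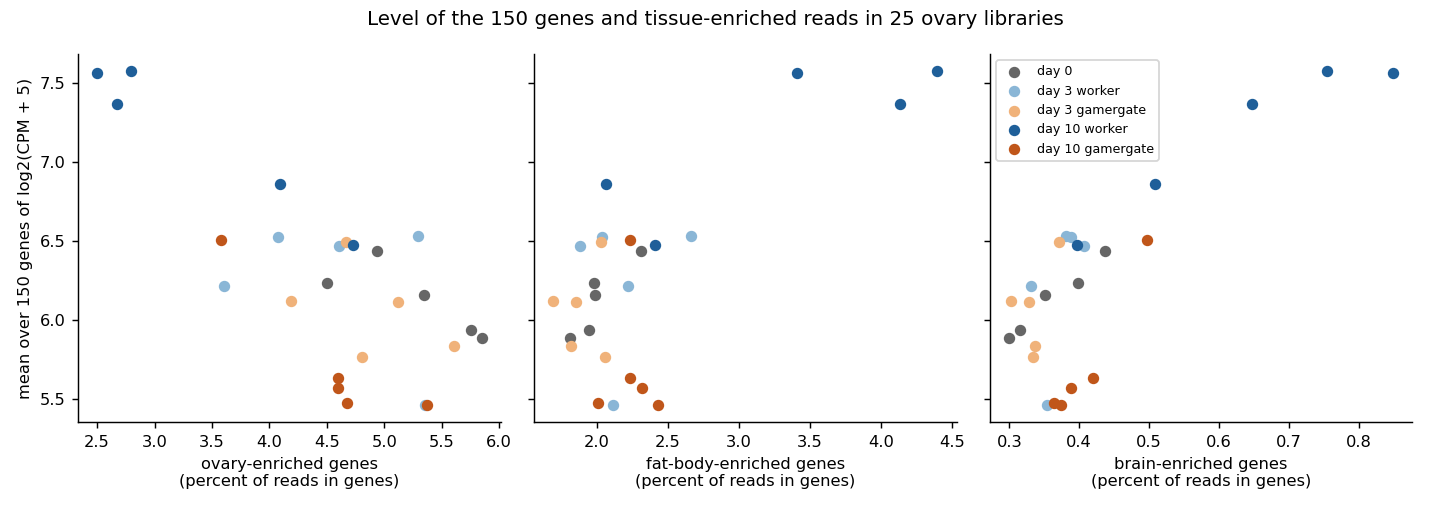
Mean over the 150 genes of log2(CPM + 5) in the 25 ovary libraries against the percent of reads in genes taken by ovary-enriched, fat-body-enriched and brain-enriched genes. Day 10 workers 1 to 3 lie at 2.503% to 2.79% ovary-enriched and 3.41% to 4.397% fat-body-enriched reads, apart from all other ovaries.

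The 150 genes also varied together in libraries that had no part in the day 10 ratio. In the 15 ovary libraries of day 0 and day 3, each gene was set against its group mean. For 148 of the 150 genes the deviations had the same sign on the first principal component, which held 60.5% of their variance. The median correlation of pairs of these genes was 0.58, and 96.0% of pairs were positive. Over the 6210 genes with at least 20 CPM, the median pair correlation was 0.01 and the first component held 42.1%. Without day 3 worker 4 the first component held 48.1% for the 150 genes and 39.1% for all genes, and the median pair correlations were 0.38 and 0.01. In the day 3 workers, worker 4 was the lowest library for 141 of the 150 genes, with a mean level of 5.46 where the other 4 were at 6.22 to 6.53. The genes raised in the other direction by the same rule, 150 genes higher in day 10 gamergate ovary, had a median pair correlation of 0.64 in these libraries. Their mean level in worker 4 was 7.19 against 6.16 to 6.34 in the other day 3 workers. These correlations are across genes within shared libraries and are given as a description.

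Among the 124 of the 150 genes at 20 CPM or above in the tissue, the median pair correlation was 0.45 in the brain, where that of all genes was 0.03, and 0.18 in the fat body, where it was 0.04. In the brain the first component held 70.8% of the variance of the 150 genes measured there and 66.3% of that of all genes, so that a strong common component was present in brain libraries in general. Without day 0 brain 5 it held 47.2% and 35.1%, and the median pair correlations were 0.43 and 0.05.

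The day 3 ovaries tested whether the caste difference was present before day 10, in libraries that the rule did not use. None of the 150 genes was called between day 3 gamergates and workers (edgeR quasi-likelihood test, adjusted p below 0.05), and neither was any of the 9150 genes tested (0% higher, 0% lower). DESeq2 called 0 of the 150 as well. At an unadjusted p below 0.05 there were 3 of the 150 genes (2%), against 362 of all genes (3.96%). The median log2 difference of the 150 genes, gamergate minus worker, was -0.13, against -0.02 for all genes tested. The worker mean was above the gamergate mean for 115 of the 150 genes. Over the 9150 genes tested the fitted difference was below 0 for 4973 and above 0 for 4176. With flow cell and lane as a term, the median log2 difference of the 150 genes was 0.10, on the other side of 0. Without worker 4 it was -0.28. Every worker lay above every gamergate for 0 of the 150 genes at day 3, where 0.153% of all genes tested did so.

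The genes with the smallest p at day 3 show how far the day 3 castes overlapped. HSALG000542.2 was at 31.9, 23.3, 22.5, 39.3 and 32.3 CPM in day 3 gamergate ovaries and at 40.1, 107, 28.5, 41.9 and 92.9 CPM in day 3 workers. Its log2 difference was -1.08 (SE 0.45, edgeR adjusted p = 0.983), and with flow cell and lane as a term it was 0.14. At day 10 the gamergates of HSALG000542.2 were at 21.6, 44.5, 32.6, 23.0 and 46.9 CPM and the workers at 293, 329, 333, 79.3 and 88.4 CPM. In the other direction HSALG009878.2 had a log2 difference of 0.48 (SE 0.31, edgeR adjusted p = 0.983). In both genes the day 3 castes overlapped.

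The comparison of day 3, as the mean of both castes, with day 0 showed few of the 150 genes changing in the ovary. The day 3 libraries were not used by the rule, and the day 0 means entered it only through the limit on tissue specificity. Of the 150 genes 8 were higher and 6 lower at day 3 (5.33% and 4%). Over all genes tested 10.4% were higher and 10.8% lower. The called differences were small, from 0.54 to 0.88 on the log2 scale for the higher genes and from -0.93 to -0.45 for the lower ones. For all 14 of these genes the means of both castes lay on the same side of day 0. The count of higher genes depended on single libraries. It was 2 without day 0 ovary 2, where 6.94% of all genes were higher, and 5 without day 0 ovary 5 (6.42% of all genes) or without day 3 worker ovary 1 (8.18%). Without day 3 worker ovary 4 it was 16, where 12.7% of all genes were higher. The count of lower genes was 3 without day 0 ovary 3 (6.95% of all genes). With flow cell and lane as a term 4 were higher and 1 lower, where 3.13% and 2.21% of all genes were.

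HSALG015359.2 fell by 0.93 on the log2 scale (SE 0.17, edgeR adjusted p = 0.000893). It was at 107, 105, 114, 57.8 and 140 CPM at day 0. Day 3 workers were at 50.1, 72.1, 47.8, 40.4 and 54.1 CPM and day 3 gamergates at 38.8, 48.4, 52.2, 66.1 and 69.4 CPM. Only day 0 ovary 4 overlapped the day 3 range. By day 10 the workers of HSALG015359.2 were at 102, 161, 148, 143 and 110 CPM, in or above the day 0 range, and the gamergates at 43.9, 40.7, 35.4, 49.3 and 55.2 CPM, as low as at day 3. This gene was thus low at day 3 in both castes and at day 10 in the gamergates alone. HSALG005235.2 had the same course and fell by 0.80 at day 3 (SE 0.18, edgeR adjusted p = 0.00357, and 0.0702 with flow cell and lane as a term). It was at 123 to 161 CPM at day 0, at 51.1 to 100.02 CPM in the 10 day 3 ovaries, at 116 to 154 CPM in day 10 workers and at 37.5 to 96.8 CPM in day 10 gamergates.

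HSALG000981.2 rose by 0.87 on the log2 scale from day 0 to day 3 (SE 0.24, edgeR adjusted p = 0.0156). It was at 35.1, 29.7, 54.9, 31.7 and 38.3 CPM at day 0. Day 3 gamergates were at 51.8, 66.6, 101, 88.4 and 50.5 CPM and day 3 workers at 73.3, 95.7, 90.9, 36.5 and 35.0 CPM. Day 3 workers 4 and 5 were thus in the day 0 range and the other 8 day 3 libraries mostly above it. In day 10 gamergates it was at 31.6, 52.2, 41.0, 42.8 and 60.1 CPM and in day 10 workers at 131, 111, 105, 77.5 and 70.5 CPM, so the day 10 castes of HSALG000981.2 did not overlap. HSALG012330.2 rose by 0.88 (SE 0.28, edgeR adjusted p = 0.0276), from 23.8 to 41.6 CPM at day 0 to 28.7 to 78.8 CPM at day 3. Its adjusted p was 0.0819 with flow cell and lane as a term, and that of HSALG000981.2 was 0.0705 with the day 0 libraries of the day 3 flow cell alone.

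In the fat body, 143 of the 150 genes had enough reads to be tested, and the other 7 reached at most 15.8 CPM in any fat body group. From day 0 to day 3, 25 of the 143 rose (17.5%) and 7 fell (4.9%), where 8.61% of all genes tested rose and 7.66% fell. The median log2 difference was 0.43, against -0.03 for all genes, and 99 of the 143 were above 0. The genes that rose did so by 0.61 to 2.64 on the log2 scale, 23 of the 25 had a mean of at least 20 CPM already at day 0, and both castes lay above day 0 for all 25. The count of rising genes was 22 to 34 when any library was left out. The count of falling genes was 4 without day 0 fat body 5 (6.25% of all genes) or day 3 gamergate fat body 3 (6.13%), and 4 with flow cell and lane as a term (3.39%). By the tissue in which they were highest at day 0, 11 of 54 brain-highest, 8 of 49 fat-body-highest and 6 of 40 ovary-highest genes rose. The 150 genes of the opposite ovary direction moved less and the other way in the fat body, with 3 of 130 rising and 13 falling and a median of -0.16. The difference between these lists was not tested.

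Among the genes called higher in the fat body HSALG004570.2 had the largest difference and rose by 2.64 on the log2 scale (SE 0.34, edgeR adjusted p = 2.8e-05). It was at 61.4, 45.2, 73.2, 110 and 89.6 CPM in day 0 fat bodies. Day 3 gamergates were at 648, 478, 520, 726 and 219 CPM and day 3 workers at 455, 226, 678, 325 and 416 CPM. No day 3 library overlapped day 0. At day 10 the gamergate fat bodies were at 356, 305, 379, 331 and 166 CPM and the workers at 123, 112, 196, 181 and 60.9 CPM. The day 10 fat bodies of HSALG004570.2 thus had the higher values in gamergates, with some overlap, opposite to its day 10 ovary, where workers were at 131, 127, 153, 146 and 80.6 CPM and gamergates at 40.3, 47.6, 47.2, 52.0 and 83.6 CPM. HSALG009069.1 had the largest negative difference among those called and fell by 4.32 on the log2 scale (SE 0.78, edgeR adjusted p = 0.000841), but day 0 fat body 5 was at 1016 CPM and the other 4 at 23.7 to 62.2 CPM. Without that library HSALG009069.1 fell by 1.804 (edgeR adjusted p = 0.0198).

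In the brain, 141 of the 150 genes were tested, and the other 9 reached at most 23.3 CPM in any brain group. From day 0 to day 3, 35 of the 141 rose (24.8%) and 8 fell (5.67%), where 8.47% of all genes tested rose and 14.8% fell. With flow cell and lane as a term 10 rose and 3 fell, where 2.20% and 3.50% of all genes did. The median log2 difference was 0.47, against -0.03 for all genes, and 110 of the 141 were above 0. The genes that rose did so by 0.40 to 1.09, 28 of the 35 had at least 20 CPM at day 0, and both castes lay above day 0 for all 35. They were 13 of 56 brain-highest, 11 of 46 fat-body-highest and 11 of 39 ovary-highest genes. The opposite ovary list had 9 of 140 rising and 27 falling in the brain, with a median of -0.22. Brain and fat body shared 6 of their rising genes. These were 17.1% of the 35, where 17.5% of the 143 genes tested in the fat body rose. They were 24% of the 25, where 24.8% of the 141 tested in the brain rose. The overlap was thus close to these shares.

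Single genes of the list changed in different ways in the 3 tissues from day 0 to day 3. HSALG000981.2, which rose in the ovary, also rose by 1.17 in the fat body (SE 0.28, edgeR adjusted p = 0.00667) and by 0.73 in the brain (SE 0.22, edgeR adjusted p = 0.0239). Its fat bodies were at 42.8 to 101.7 CPM at day 0 and at 81.5 to 242 CPM at day 3. HSALG005235.2, which fell in the ovary, rose by 1.23 in the fat body (SE 0.26, edgeR adjusted p = 0.00217). Its fat bodies were at 281, 289, 578, 275 and 208 CPM at day 0 and at 487 to 992 CPM at day 3, so that only day 0 fat body 3 overlapped. HSALG000542.2, with no call in the ovary at day 3, rose by 1.33 in the fat body (SE 0.24, edgeR adjusted p = 0.000454), from 775 to 1508 CPM at day 0 to 1948 to 5072 CPM at day 3 without overlap.

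Day 0 brain 5 bore on the number of genes called in the brain. The mean level of the 150 genes was 5.27 in it and 6.05 to 6.36 in the other 4 day 0 brains. Of its reads 67.7% fell outside annotated genes, against 57.1% to 58.0% in the other day 0 brains, 52.6% to 57.9% in day 3 brains and 50.6% to 55.8% in day 10 brains. Without it, 15 of the 150 genes rose, where 3.35% of all genes tested did, and 8 fell, where 4.00% did, and the median difference was 0.29. The day 3 brains had a mean level of 6.46 ± 0.240 (SD, n = 5) in gamergates and 6.35 ± 0.205 in workers, within the range of day 0 brains 1 to 4 for several libraries. What part the share of reads outside genes has in the difference was not tested. Leaving out single day 3 brains also lowered the count of rising genes, to 18 without worker 2, 21 without worker 3, gamergate 1 or gamergate 4, and 22 without gamergate 3, where 4.13% to 5.17% of all genes rose.

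**Figure D5:**
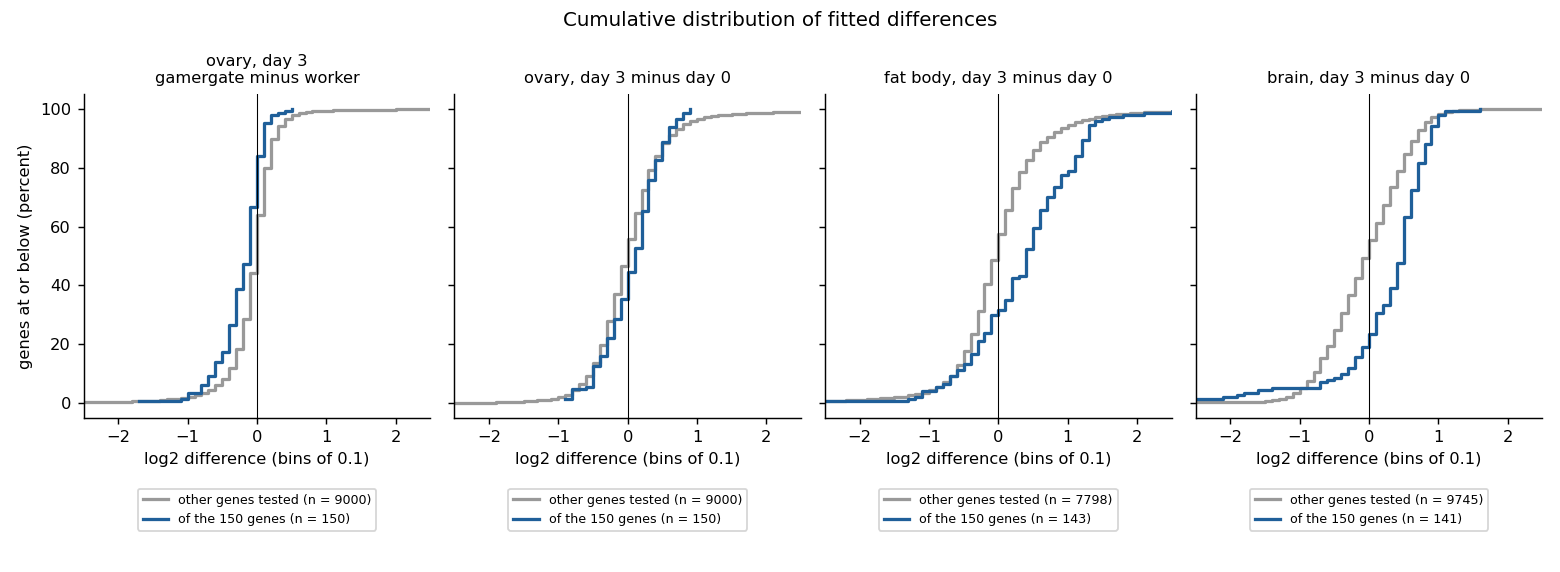
Cumulative percent of genes at or below each fitted log2 difference, for those of the 150 genes tested and for the other genes tested, in 4 comparisons. The curves lie close together for the ovary from day 0 to day 3, while in fat body and brain the 150 genes lie to the right, with medians of 0.43 and 0.47.

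Among the genes called higher in the brain HSALG012330.2 had the largest difference and rose by 1.09 on the log2 scale (SE 0.34, edgeR adjusted p = 0.0261). It was at 20.4, 10.5, 18.4, 18.3 and 2.62 CPM in day 0 brains and at 18.6 to 51.7 CPM in the 10 day 3 brains, so the ranges overlapped slightly. Without day 0 brain 5 the rise was 0.82 (adjusted p = 0.0774), past the threshold no longer. HSALG009310.2 had the largest negative difference among those called and fell by 3.29 (SE 0.53, edgeR adjusted p = 0.000849). Its day 0 brains were at 354, 23.0, 940, 16.8 and 203 CPM, so that brains 2 and 4 lay among the day 3 values of 7.63 to 78.7 CPM. It fell by 2.24 without day 0 brain 3.

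Between the castes at day 3, none of the 150 genes was called in the fat body or the brain (edgeR, adjusted p below 0.05), where 0% of all genes were called higher in either and 0.0504% in the fat body and 0% in the brain lower. At an unadjusted p below 0.05 there were 8 of 143 genes in the fat body (5.59%, against 6.4% of all genes) and 2 of 141 in the brain (1.42%, against 1.27%). DESeq2 called 0 of the 150 in both tissues. The median log2 differences were -0.07 in the fat body and 0.10 in the brain, against -0.03 and -0.001 for all genes tested. In the brain 110 of the 141 genes were above 0 and 31 below, where 4918 of all 9886 were above and 4968 below. In the fat body 60 of the 143 genes were above 0 and 83 below, where 3694 of all 7941 were above and 4247 below.

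The difference from day 0 in fat body and brain was looked at again at day 10, after the day 3 result was known. The comparison uses the same day 0 libraries, and the day 10 libraries entered the rule through the caste ratio, so it is no independent support. As the mean of both castes against day 0, 29 of 143 genes rose and 1 fell in the fat body, where 7.38% of all genes tested rose and 6.65% fell, with a median of 0.49. In the brain 53 of 141 rose and 11 fell, where 10.2% and 14.5% of all genes did, with a median of 0.57. Without day 0 brain 5, 31 rose in the brain, where 5.65% of all genes did, and without day 10 gamergate brain 5, 83 rose, where 20.5% of all genes did. The brain count was 35 without day 10 gamergate brain 2 (7.06% of all genes) and 33 without gamergate brain 4 (7.01%). The count of falling genes in the brain was 6 without day 0 brain 5 (5.28%) and 7 without day 10 worker brain 2 (11.4%). Without day 0 fat body 1, 17 rose in the fat body (4.35% of all genes), and without day 10 worker fat body 3, 19 rose (4.98%). With flow cell and lane as a term 4 rose in the fat body (1.03% of all genes) and 1 in the brain (0.0506%).

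At day 10 the caste comparison outside the ovary is a description, since the rule used it. In the fat body 4 of the 143 genes were higher and 4 lower in gamergates, where 1.99% and 2.23% of all genes were. In the brain 1 was higher and 1 lower, where 0.182% and 0.0607% of all genes were, and these were named after their values were seen. HSALG013364.2 was at 178, 176, 112, 119 and 760 CPM in day 10 gamergate brains and at 31.4, 62.1, 20.1, 63.7 and 32.6 CPM in day 10 worker brains. The gene with the lowest gamergate ratio in the ovary was thus higher in every gamergate brain than in any worker brain at day 10. At day 3 its brain means were 41.9 CPM in gamergates and 40.1 CPM in workers. At day 0 its mean was 937 CPM in fat body and 45.6 CPM in brain. Fat-body-enriched genes took 4.46% to 7.47% of the reads in day 10 gamergate brains, highest in brain 5, and 2.83% to 3.61% in worker brains. What part these reads have in the brain difference was not tested. HSALG011103.2 had a mean of 8.15 CPM in gamergate brains and 27.1 CPM in worker brains.

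In the ovary at day 10 the fit that shares the spread over all 5 ovary groups called 147 of the 150 genes lower in gamergates, where 21.5% of all genes were, which restates the rule. With flow cell and lane as a term the fit called 0 of the 150, and 1 of all 9150 genes tested instead of 4036. The difference of each of the 150 genes stayed negative in that fit, with a median of -1.10 on the log2 scale instead of -1.39, and the median SE was 0.67 instead of 0.28.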

How the data were processed

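The authors deposited raw read counts per gene, whole numbers for 20659 gene models in 75 libraries. Polyadenylated RNA from Trizol extracts went into NEBNext Ultra II libraries after DNase treatment, per the labels' protocols. The tools were Trimmomatic, STAR 2.5.3a and HTSeq, per the submitters' processing notes. The build, annotation and strand setting were not given in the sources used here. Of the identifiers, 0 matched the RefSeq gene table, so overlapping or duplicated genes could not be recognised and gene lists by name were not applied. Rows of reads outside genes (20.7% to 67.7% of a library, median 38.2%), ambiguous reads (0.615% to 2.41%) and multiply aligned reads (4.07% to 16.6%) stayed out of library sizes and tests.

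CPM values were scaled by TMM over all 75 libraries. Each tissue was fitted with edgeR 4.0.16 in R 4.3.3 on its 25 libraries (filterByExpr with a minimum count of 10 and a minimum total of 15, TMM within the tissue, robust quasi-likelihood test, 1 coefficient per group, Benjamini-Hochberg threshold 0.05 over all genes tested). The SE is the absolute log2 difference divided by the square root of the test's F statistic. The fits were tested on simulated data. Tissue-enriched genes had a log2 fold above 3 against both other tissues at day 0, an adjusted p below 0.05 and at least 10 CPM.

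The genes, lists and comparisons were chosen with earlier results of these data known. Genes named are those at the extremes and limits of the rule, those with the most reads in day 10 worker ovary, those with the largest called day 3 changes (smallest p between castes where none was called) and those varying least outside the day 10 gamergates. The alternatives were DESeq2 1.42.0, other scalings, no filter, only the groups compared, flow cell and lane or the replicate number as a term, and leaving out libraries. The profile and correlations without single libraries, and the lane term at day 10, were chosen after seeing the data.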

Additional observations from a re-analysis of the deposited data

Results flagged for a closer look

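Among 105 groups of 5 libraries examined, 11 held a library set apart from the other 4 by most of the group's range. Chance sets apart about 1 in 20 independent sets. The sets examined share libraries and hold genes that vary together, so this rate cannot be set against the 11.

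Of the 11 sets flagged, 7 were set apart by day 10 gamergate ovary 5. The mean log2 level of the 150 genes was 6.509 there and 5.462 to 5.633 in the other 4 gamergates. HSALG013364.2 was at 201.4 CPM against 11.5 to 16.1 CPM, HSALG004554.2 at 169.2 CPM against 12.9 to 16.1 CPM, and HSALG009310.2 at 1624 CPM against 114 to 193 CPM. HSALG002997.2 was at 57.7 CPM against 21.9 to 29.6 CPM, HSALG012330.2 at 33.25 CPM against 14.6 to 19.4 CPM, and HSALG005340.1 at 151.1 CPM against 37.4 to 60.5 CPM.

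The other 4 lay in further libraries numbered 5. The mean log2 level of the 150 genes was 5.269 in day 0 brain 5, against 6.054 to 6.361 in the other day 0 brains. HSALG009310.2 was at 807 CPM in day 0 ovary 5, against 239 to 308 CPM. HSALG009069.1 was at 1016 CPM in day 0 fat body 5, against 23.7 to 62.2 CPM. HSALG012330.2 was at 5.808 CPM in day 10 gamergate brain 5, against 25.7 to 31.6 CPM.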

How the results depend on the processing

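The number of genes meeting the rule was 292, 471 with no scaling beyond library totals (112 of the 150 kept), and 242 to 351 when 1 day 10 ovary was left out. In the ovary from day 0 to day 3, the higher count of 8 was 5 with no filter, 4 with flow cell and lane as a term, 14 without every library numbered 5, 3 with the day 0 libraries of the day 3 flow cell alone, and 2 to 16 when 1 library was left out. The lower count of 6 was 1 with the lane term, 3 with that flow cell alone, and 3 to 8 with 1 library left out. In the fat body from day 0 to day 3 the higher count ranged from 22 to 34 and the lower count from 4 to 7 with 1 library left out, and the lower count was 4 with the lane term and 4 with the day 3 flow cell alone. At day 10 the fat body counts were 4 and 0 with the lane term and 47 and 2 without the libraries numbered 5, the lower count was 2 with only the groups compared, and leaving out 1 library gave 17 to 42 and 0 to 3. In the brain from day 0 to day 3 the higher count of 35 was 23 with no filter, 10 with the lane term and 67 without the libraries numbered 5 (18.8% of all genes), the lower count was 3 with the lane term, and leaving out 1 library gave 15 to 42 and 7 to 11. At day 10 the brain counts were 1 and 4 with the lane term and 17 and 5 with only the groups compared, the higher count was 34 with no filter and 88 without the libraries numbered 5, and leaving out 1 library gave 31 to 83 and 6 to 13. Between castes at day 3 the lane term gave 1 higher gene in the brain, and HSALG000542.2 turned to 0.1424 in the ovary. The share of all genes called also changed between settings, as given above for several of them. These counts alone therefore do not show a change particular to the 150 genes. Fewer samples or genes enter several of these fits, and otherwise the cause was not tested. No count was changed by over 1.5 times by DESeq2 or by RLE scaling (the size factors of DESeq2).

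Within a tissue, the replicate numbers were not taken to pair the libraries, since some same-numbered libraries of different groups had correlations under 0.1 and the labels name no shared source. Pairing across tissues was not checked. The mean correlation of deviations between libraries of the same number was 0.0232 in the ovary (-0.660 to 0.664), 0.000173 in the fat body and 0.134 in the brain (-0.569 to 0.565, against -0.0189 for other numbers), and 7, 8 and 6 of the 25 libraries correlated best with their own number. With the replicate number as a block the brain count from day 0 to day 3 was 59 higher, where 15.1% of all genes were, and the fat body had 0 lower at day 10. With 488892 to 4677916 reads in genes per library, small differences of genes near the filter on low counts may not have been detectable.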
